A study of Homo sapiens with 12 samples.

Results

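The genes described here carry cytokine signals from the surface of blood cells to the nucleus. They are the erythropoietin receptor gene EPOR, the stem cell factor receptor gene KIT, the Janus kinase genes JAK1 and JAK2, the transcription factor genes STAT3, STAT5A and STAT5B, and PIM1 and CISH, which are transcribed in response to STAT5. The 9 genes were chosen by symbol for their known place in this pathway, by a rule that uses no measured value, and all 9 were found among the 60609 genes listed for each library. A further 115 genes of the same pathway, in 6 lists by role, were read beside them. Earlier results of these data were known when the 9 genes and the lists were chosen.

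Expression was measured by RNA-seq in K562 cells, a human erythroleukemia line that was established from chronic myeloid leukemia in blast crisis. Cells were treated for 48 h either with the solvent DMSO (3 libraries) or with 10 μM FT671, an inhibitor of the deubiquitinating enzyme USP7 (3 libraries). The comparison asks how expression changes upon USP7 inhibition. All libraries come from this 1 unmodified line, which itself carries the BCR-ABL1 fusion kinase, and the study describes the libraries as coming from 3 independent experiments.

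Cytokine receptors such as EPOR have no kinase of their own. JAK proteins bound to their tails are switched on when the ligand brings the receptor chains together, and they phosphorylate STAT proteins, which form dimers, enter the nucleus and bind sites of the form TTCNNNGAA near their target genes. KIT is itself a tyrosine kinase and feeds into the same STAT, PI3K and RAS routes. In red cell precursors EPOR, JAK2 and STAT5 support survival and division, and the target CISH, like the related SOCS proteins, dampens the signal. In K562 cells BCR-ABL1 is known to phosphorylate STAT5 without a ligand, so the RNA levels given here do not measure the activity of the pathway.

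Libraries held between 4555220 and 14250500 counts, and 3 counts, taken as the smallest detectable level, lay at 0.211 to 0.659 CPM (counts scaled to the library size) depending on the library. Of the listed genes, 13895 had enough counts to be tested. All CPM values are scaled by edgeR's TMM factors, and limits set by counts cover counting error alone. Of 11 markers of erythroid K562 cells 10 were tested, and their summed level was between 1452 and 1468 CPM in DMSO and between 1269 and 1312 CPM in FT671. The sum joins opposite changes, since among others GATA1, TAL1, KLF1, NFE2 and TFRC were lower and the globin genes HBG1, HBG2 and HBZ and the factor gene LMO2 were higher (edgeR, adjusted p of at most 0.05). In these bulk samples fewer cells of a type and less RNA per cell cannot be told apart. Of 25 markers of 5 other cell types 14 had at most 3 counts in every library. The summed monocyte markers, nearly all of it LYZ, ranged from 51.4 to 54.3 CPM in DMSO and from 72.6 to 76.0 CPM in FT671, while CD14 and CSF1R were at or under the floor. The T cell markers, nearly all of it CD3D with CD8A and CD28 at 0, ranged from 17.0 to 20.5 and from 24.0 to 29.3 CPM, and the epithelial markers (KRT8, KRT18 and EPCAM, with KRT5 at 0) from 435 to 531 and from 573 to 598 CPM. Their part in the results was not tested.

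The windows around the start sites of 3 of these genes are shown because they differ in the motif that STAT dimers bind. They span 250 bases before and 50 bases after the start site, were taken from RefSeq on GRCh38.p14 and read 5′ to 3′ on the strand of the gene. All 9 genes were matched, with 16 such windows. The windows were searched on both strands for TTCNNNGAA, the core of the STAT motif, and for AGATAA, a form of the motif of the erythroid factor GATA1. No matches overlapped, and a match is a description of the letters only. Capitals mark the matches. CISH (chr3:50611725-50612024, minus strand) held 4 matches to TTCNNNGAA, starting 241, 230, 129 and 112 bases before the start site. EPOR (chr19:11384265-11384564, minus strand) held 1 match to AGATAA, on the opposite strand, starting 78 bases before the start site. PIM1 (chr6:37169902-37170201, plus strand) held neither.
CISH: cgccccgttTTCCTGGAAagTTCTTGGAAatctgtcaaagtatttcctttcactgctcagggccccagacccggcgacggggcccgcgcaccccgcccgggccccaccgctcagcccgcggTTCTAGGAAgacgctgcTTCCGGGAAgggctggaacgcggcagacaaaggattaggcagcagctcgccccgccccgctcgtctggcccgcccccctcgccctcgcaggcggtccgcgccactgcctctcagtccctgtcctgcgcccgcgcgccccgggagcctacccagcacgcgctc
EPOR: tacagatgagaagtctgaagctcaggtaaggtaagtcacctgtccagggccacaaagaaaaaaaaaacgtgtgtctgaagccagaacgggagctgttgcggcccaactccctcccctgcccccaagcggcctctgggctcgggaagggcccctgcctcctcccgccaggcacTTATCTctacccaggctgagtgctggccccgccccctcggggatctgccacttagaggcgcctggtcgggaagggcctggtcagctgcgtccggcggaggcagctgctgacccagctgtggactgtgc
PIM1: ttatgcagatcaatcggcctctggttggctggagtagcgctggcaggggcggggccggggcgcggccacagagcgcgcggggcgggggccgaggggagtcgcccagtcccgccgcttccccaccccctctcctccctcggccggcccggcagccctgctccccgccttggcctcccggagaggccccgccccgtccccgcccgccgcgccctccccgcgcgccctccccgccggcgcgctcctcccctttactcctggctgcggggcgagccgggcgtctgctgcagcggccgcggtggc

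Of all 35116 RefSeq windows of this length, 7.66% held TTCNNNGAA and 10.3% held AGATAA. Among the 9 genes TTCNNNGAA occurred in the CISH window alone and AGATAA in the EPOR window alone. The CISH and PIM1 windows were rich in CpG, with 33 and 39 CpG, whereas the EPOR window held 13, against a median of 14 over all windows. The single STAT5B window held 55 CpG, more than 99.6% of all windows, and the 3 windows of its neighbour STAT5A held 3, 5 and 37.

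Upon USP7 inhibition EPOR, KIT, JAK1 and CISH were lower and STAT5A was higher, whereas JAK2, STAT3, STAT5B and PIM1 did not pass the test. Thus 4 of 9 genes were called lower and 1 higher at an adjusted p of 0.05 (quasi-likelihood test of edgeR, adjusted by Benjamini-Hochberg over every gene tested). Over all genes tested 26.5% were called lower and 23.6% higher, so that changes at this threshold were common. At the stricter adjusted p of 1e-05 by edgeR, KIT remained lower and STAT5A higher, against a background of 4.13% and 1.79%. The study applied this threshold to DESeq2 values. By the Wald test of DESeq2, EPOR, KIT, JAK1 and CISH were lower and STAT5A higher at an adjusted p below 1e-05. No background share at this threshold is given for DESeq2. In 5 of the 9 genes every FT671 library lay below every DMSO library, and in 1 every FT671 library lay above, compared with 30.3% and 26.8% of all genes tested, or 57.1% in either direction. The median log2 fold change was -0.10 over the 9 genes and -0.010 over all genes tested.

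**Figure D1:**
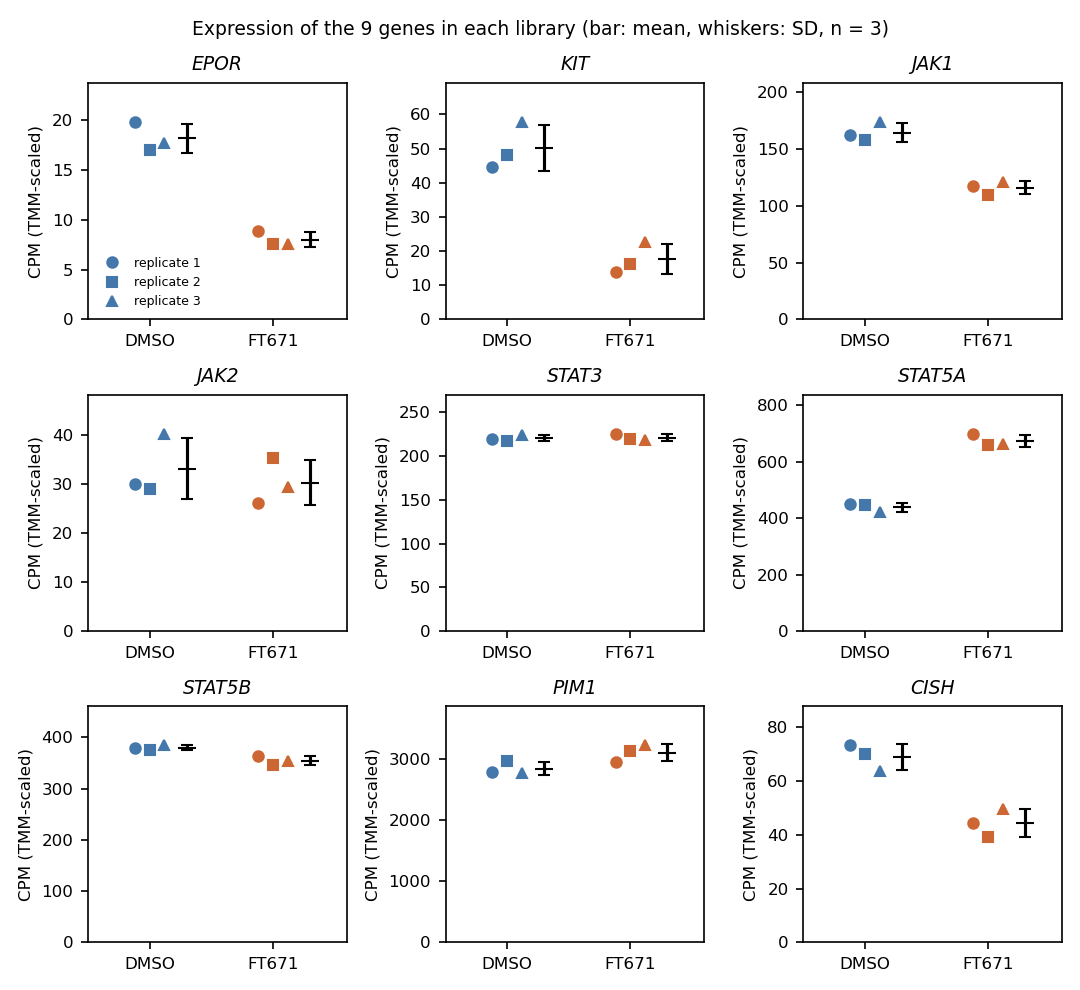
Expression of the 9 genes in each library, in CPM on axes that differ between panels, with replicates as symbols of a different shape, DMSO in blue and FT671 in orange, and bars with whiskers for the mean and SD (n = 3). In the panels for EPOR, KIT, JAK1 and CISH every FT671 point lies below every DMSO point, in the STAT5A panel every FT671 point lies above, and in the JAK2, STAT3 and PIM1 panels the groups overlap.

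Both receptor genes were lower in FT671, and of the 9 genes they had the largest changes. EPOR (ENSG00000187266.14, hg38 chr19:11377207-11384342, minus strand) encodes the receptor through which erythropoietin keeps red cell precursors alive. Its level was 19.8, 17.0 and 17.7 CPM in DMSO replicates 1, 2 and 3 and 8.88, 7.58 and 7.60 CPM in FT671 replicates 1, 2 and 3. The highest FT671 library lay well below the lowest DMSO library. DMSO averaged 18.2 ± 1.44 CPM and FT671 averaged 8.02 ± 0.749 CPM (SD, n = 3), or 44.1% of the DMSO mean. The log2 fold change was -1.21 with a standard error of 0.14, a 95% interval of -1.51 to -0.90 and an adjusted p of 1.18e-05 (edgeR). EPOR shares 2 exonic bases with RGL3, which was at 0.653 CPM in DMSO and 1.58 CPM in FT671.

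KIT (ENSG00000157404.15, chr4:54657267-54740783, plus strand) encodes the receptor of stem cell factor, a growth factor of progenitors and mast cells. Its level was 44.6, 48.1 and 57.7 CPM in DMSO and 14.0, 16.2 and 22.5 CPM in FT671. The groups did not overlap, although the libraries of each group were more spread than for EPOR. DMSO averaged 50.1 ± 6.77 CPM and FT671 averaged 17.6 ± 4.42 CPM (SD, n = 3), or 35.1%. With a log2 fold change of -1.44 (standard error 0.15, 95% interval -1.77 to -1.11, adjusted p = 5.01e-06, edgeR) KIT had the largest decrease of the 9 genes. The erythroid markers given above changed in both directions in FT671, and their part in the values of EPOR and KIT was not tested.

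The ligands of these receptors were at the limit of detection. EPO, encoding erythropoietin, had 0 counts in all 6 libraries, which allows up to 0.211 to 0.659 CPM depending on the library. KITLG, encoding stem cell factor, had 1 count in DMSO replicate 1, 1 count in FT671 replicate 1 and none in the other libraries. Of 18 ligand genes 11 had at most 3 counts in every library, and 2 were tested. Of these CSF1, a growth factor of macrophages, was lower in FT671 (30.5 ± 3.08 CPM in DMSO and 23.4 ± 3.32 CPM in FT671, SD, n = 3, log2 fold change -0.39, adjusted p = 0.0191, edgeR), while TSLP, at 2.46 ± 0.373 and 3.91 ± 1.81 CPM, did not pass the test (adjusted p = 0.193, edgeR). The call of CSF1 was lost without DMSO replicate 2 (log2 fold change -0.30, adjusted p = 0.0933, edgeR) and without FT671 replicate 2 (-0.28, adjusted p = 0.105, edgeR).

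Of 35 other cytokine receptor genes 20 were tested, and 6 were lower, 1 was higher and 13 were not called. The shares over all genes tested were 26.5% lower and 23.6% higher. The median log2 fold change was -0.23 in the 20 receptor genes and -0.010 over all genes tested. The 3 largest decreases were those of IL10RB, CSF2RB and IFNAR2. IL10RB, a chain shared by receptors of the interleukin-10 family, was at 6.51, 7.05 and 6.66 CPM in DMSO and 1.78, 2.71 and 3.93 CPM in FT671 (log2 fold change -1.13, adjusted p = 0.00141, edgeR). CSF2RB, the beta chain shared by the receptors of GM-CSF, interleukin-3 and interleukin-5, was at 5.75, 6.41 and 5.73 CPM in DMSO and 3.998, 2.35 and 2.59 CPM in FT671 (log2 fold change -1.06, adjusted p = 0.00166, edgeR). In both genes no FT671 library reached the lowest DMSO library.

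IFNAR2, a chain of the type I interferon receptor, was at 3.78 ± 0.153 CPM in DMSO and 2.17 ± 0.852 CPM in FT671 (SD, n = 3, log2 fold change -0.84, adjusted p = 0.0202, edgeR). It shares 1803 exonic bases with IL10RB-DT on the opposite strand, which was itself lower (log2 fold change -1.70, adjusted p = 0.00306, edgeR), and the strand setting of the counting is not given in the sources used here. On its own strand IFNAR2 shares 2038 exonic bases, and IL10RB 1732, with the readthrough gene IFNAR2-IL10RB, which had 0 counts in every library. The call of IFNAR2 was lost under 5 of the 16 alternatives in which it was tested. LEPR, the leptin receptor, was the 1 receptor called higher (146 ± 27.8 CPM in DMSO and 183 ± 15.8 CPM in FT671, SD, n = 3, log2 fold change 0.34, adjusted p = 0.0232, edgeR), but its groups overlapped and the call was lost under 4 alternatives, each leaving out 1 library. The adjusted p of LEPR ranged up to 0.123 when 1 library was left out. LEPR shares 165 exonic bases on the same strand with LEPROT, which was lower (log2 fold change -1.08, adjusted p = 1.47e-05, edgeR).

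Of the receptor-bound kinases JAK1 was lower and JAK2 was not called. JAK1 (ENSG00000162434.13, chr1:64833223-65067754, minus strand) encodes the kinase used by interferon and gp130 receptors. It was at 162, 158 and 173 CPM in DMSO and 118, 109 and 121 CPM in FT671. No FT671 library reached the DMSO range. Means were 164 ± 8.09 and 116 ± 6.01 CPM (SD, n = 3), with a log2 fold change of -0.50 (standard error 0.075, 95% interval -0.66 to -0.34, adjusted p = 9.83e-05, edgeR). JAK1 shares 647 exonic bases on the same strand with LINC01359, which was at 0.107 CPM in DMSO and 0.194 CPM in FT671, and 10 on the opposite strand with RAVER2, which was not called (log2 fold change 0.22, adjusted p = 0.207, edgeR).

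JAK2 (ENSG00000096968.13, chr9:4984390-5129948, plus strand) encodes the kinase that EPOR depends on. It was at 30.1, 29.0 and 40.3 CPM in DMSO and 26.2, 35.4 and 29.5 CPM in FT671, so the groups overlapped, with DMSO replicate 3 above all others. The log2 fold change was -0.099 (95% interval -0.40 to 0.20, adjusted p = 0.583, edgeR), and its sign turned to 0.030 without DMSO replicate 3. The log2 ratio of JAK1 to JAK2, per kb of exon and within each library, was 1.69, 1.70 and 1.37 in DMSO and 1.43, 0.89 and 1.30 in FT671. The means differed by -0.38, with p = 0.2 by a two-sided exact permutation test, in which 0.1 is the smallest p possible with 3 libraries in each group. TYK2, the other broadly expressed JAK gene, was at 76.2 ± 2.97 and 66.7 ± 6.17 CPM (SD, n = 3) and was not called (log2 fold change -0.20, adjusted p = 0.0704, edgeR).

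The STAT genes of chromosome 17 lie next to each other but did not change alike. STAT5A (ENSG00000126561.16, chr17:42287547-42311943, plus strand) and STAT5B (ENSG00000173757.9, chr17:42199176-42288633, minus strand) are near-identical genes that lie head to head and share 415 exonic bases on opposite strands, and STAT3 (ENSG00000168610.14, chr17:42313324-42388540, minus strand) follows STAT5A. STAT5A was at 449, 448 and 420.4 CPM in DMSO and 699, 658 and 663 CPM in FT671. Every FT671 library lay above every DMSO library by more than the range of either group. The means were 439 ± 16.3 and 674 ± 22.3 CPM (SD, n = 3), a 1.53-fold increase (log2 fold change 0.62, standard error 0.067, 95% interval 0.47 to 0.76, adjusted p = 5.40e-06, edgeR).

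STAT5B was at 379, 376 and 384 CPM in DMSO and 364, 346 and 353 CPM in FT671. The FT671 libraries were the lower ones throughout, yet the difference did not pass the test (log2 fold change -0.10, 95% interval -0.24 to 0.038, adjusted p = 0.211, edgeR), and with a correction for gene length its sign turned to 0.039. STAT3, the STAT of the interleukin-6 family, was at 219.7, 217 and 224 CPM in DMSO and 225, 219.6 and 219 CPM in FT671. The groups overlapped, and the 95% interval of its log2 fold change of 0.0049 ran from -0.14 to 0.15 (adjusted p = 0.958, edgeR).

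Within each library, where scaling between libraries plays no part, the ratio of STAT5A to STAT5B per kb of exon was 2.25, 2.26 and 2.08 in DMSO and 3.64, 3.61 and 3.57 in FT671. The ratio was higher in every FT671 library than in any DMSO library. On the log2 scale it was 1.13 ± 0.069 in DMSO and 1.85 ± 0.016 in FT671 (SD, n = 3), a difference of 0.72 with p = 0.1 by the two-sided exact permutation test, the smallest p possible. STAT5A and STAT5B together were at 829, 823 and 804 CPM in DMSO and 1063, 1004 and 1016 CPM in FT671, or 126% of the DMSO mean, again with an exact permutation p of 0.1. STAT5A made up 53.6% ± 1.18 of the counts of the pair in DMSO and 65.5% ± 0.245 in FT671 (SD, n = 3). How reads were divided between genes of such similar sequence depends on the authors' counting, so the values of this pair are less certain than those of the other genes.

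**Figure D2:**
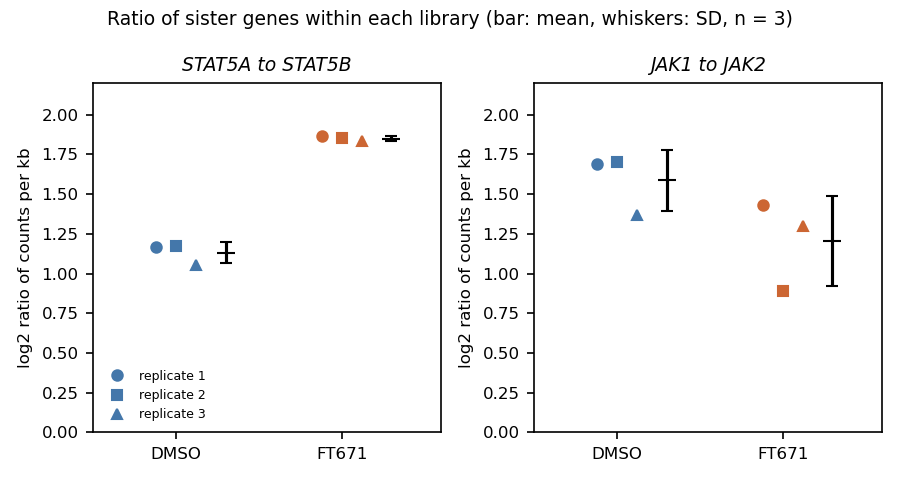
Log2 ratios of counts per kb of exon within each library for STAT5A to STAT5B and for JAK1 to JAK2, with replicates as symbols of a different shape and bars with whiskers for the mean and SD (n = 3). For STAT5A to STAT5B the FT671 libraries sit between 1.83 and 1.87 and the DMSO libraries between 1.05 and 1.18, whereas for JAK1 to JAK2 the groups overlap.

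STAT4, the STAT of interleukin-12, is outside the 9 genes and had at most 3 counts in every library.

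Of the STAT5 targets CISH was lower and PIM1 was not called. CISH (ENSG00000114737.15, chr3:50606489-50611774, minus strand) encodes a feedback inhibitor that binds activated receptors, and its promoter is the one with 4 STAT motifs printed above. It was at 73.2, 70.1 and 63.8 CPM in DMSO and 44.2, 39.3 and 49.6 CPM in FT671. The groups were well apart. Means were 69.0 ± 4.80 and 44.4 ± 5.14 CPM (SD, n = 3), with a log2 fold change of -0.63 (standard error 0.10, 95% interval -0.85 to -0.41, adjusted p = 1.87e-04, edgeR). CISH shares 218 exonic bases with MAPKAPK3 on the opposite strand, which was at 62.5 CPM in DMSO and 73.4 CPM in FT671 and was not called (log2 fold change 0.22, adjusted p = 0.0713, edgeR).

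PIM1 (ENSG00000137193.14, chr6:37170152-37175428, plus strand) encodes a serine/threonine kinase that promotes survival and growth. It was at 2791, 2969 and 2780.0 CPM in DMSO and 2962, 3137 and 3229 CPM in FT671. The lowest FT671 library lay just under the highest DMSO library. The log2 fold change of 0.13 did not pass the test (95% interval -0.019 to 0.27, adjusted p = 0.135, edgeR), although after correction for GC content it was 0.20 with an adjusted p of 0.020 (edgeR). Its relatives PIM2 and PIM3 moved in opposite directions. PIM2 was higher (185 ± 5.37 CPM in DMSO and 249.7 ± 11.6 CPM in FT671, SD, n = 3, log2 fold change 0.43, adjusted p = 1.64e-04, edgeR) and PIM3 was lower (94.4 ± 10.2 and 54.9 ± 4.65 CPM, SD, n = 3, log2 fold change -0.80, adjusted p = 1.71e-05, edgeR).

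Of 15 other genes listed as STAT5 targets 14 were tested, PIM2 and PIM3 among them, and 9 were lower, 2 were higher and 3 were not called. As a background, 26.5% of all genes tested were lower and 23.6% higher. The median log2 fold change was -0.40 in this list and -0.010 over all genes tested. The 2 higher genes were PIM2 and BCL6. BCL6, a transcriptional repressor of germinal centre B cells, was at 18.6, 20.5 and 21.1 CPM in DMSO and 36.2, 38.2 and 40.1 CPM in FT671, and it passed the stricter threshold too (log2 fold change 0.95, adjusted p = 7.19e-06, edgeR). With PIM3 the largest decreases were those of ID1, an inhibitor of DNA binding by helix-loop-helix factors (15.3 ± 1.52 and 7.31 ± 0.955 CPM, SD, n = 3, log2 fold change -1.08, adjusted p = 8.10e-05, edgeR), and CCND2, encoding cyclin D2 (210.4 ± 22.2 and 137 ± 8.46 CPM, SD, n = 3, log2 fold change -0.61, adjusted p = 5.32e-05, edgeR). BCL2L1, a survival gene that is often read as a STAT5 target in erythroid cells and was picked here after its values were seen, was at 277 ± 10.4 CPM in DMSO and 276 ± 13.6 CPM in FT671 (SD, n = 3, log2 fold change -0.0062, adjusted p = 0.949, edgeR). It shares 1735 exonic bases with ABALON on the opposite strand. IRF1, called lower at an adjusted p of 0.0429 (edgeR), lost its call under 13 of 17 alternatives, and it shares 2805 exonic bases with IRF1-AS1 and 486 with ENSG00000283782 on the opposite strand. BCL6 shares 171 and 316 exonic bases with ENSG00000228804 and ENSG00000285938 on the opposite strand, of which the first was higher too (log2 fold change 1.46, adjusted p = 0.00257, edgeR). CCND2 shares 162 with CCND2-AS1 on the opposite strand and 999 on the same strand with ENSG00000285901, which had 0 counts in every library.

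All 19 negative regulators were tested, and 9 were lower, 1 was higher and 9 were not called, where 26.5% and 23.6% of all genes tested were lower and higher. The median log2 fold change was -0.18, against -0.010 over all genes tested. The SOCS genes SOCS3, SOCS7 and SOCS1 had the largest decreases. SOCS3, which inhibits JAKs at gp130 receptors, was at 13.2, 11.7 and 11.6 CPM in DMSO and 6.22, 6.49 and 4.02 CPM in FT671 (log2 fold change -1.22, adjusted p = 1.35e-04, edgeR). SOCS7 was at 30.6, 31.4 and 36.05 CPM in DMSO and 13.8, 16.6 and 13.7 CPM in FT671 (log2 fold change -1.15, adjusted p = 4.85e-06, edgeR). SOCS1, an inhibitor of interferon signals, was at 29.0, 27.9 and 21.4 CPM in DMSO and 15.5, 15.3 and 13.9 CPM in FT671 (log2 fold change -0.85, adjusted p = 1.53e-04, edgeR).

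Counted together with CISH, 5 of the 8 genes of the SOCS family were lower, none was higher and 3 were not called, a grouping that was made after the values were seen, against 26.5% lower and 23.6% higher over all genes tested. SOCS4, SOCS5 and SOCS6 were the 3 that did not pass the test, with log2 fold changes of -0.13, -0.15 and 0.31 and adjusted p of 0.575, 0.466 and 0.0547 (edgeR). Of the PIAS genes, which encode SUMO ligases that restrain STATs, 3 were lower and PIAS3 was higher (30.6 ± 2.50 CPM in DMSO and 40.6 ± 2.204 CPM in FT671, SD, n = 3, log2 fold change 0.39, adjusted p = 0.00557, edgeR). This grouping was not planned either, and over all genes tested 26.5% were lower and 23.6% higher. PIAS3 shares 433 exonic bases with NUDT17 on the opposite strand. Of the 3 lower genes PIAS1 lost its call once gene length was corrected for (log2 fold change -0.21, adjusted p = 0.0523, edgeR) and without FT671 replicate 2 (-0.28, adjusted p = 0.0602, edgeR). PIAS1 shares 3261 exonic bases with CALML4 and 2934 with ENSG00000260007, both on the opposite strand.

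Of 22 adaptors and downstream kinases 20 were tested, and 10 were lower, 1 was higher and 9 were not called. Among all genes tested 26.5% were lower and 23.6% higher. The median log2 fold change was -0.37 in this list and -0.010 over all genes tested. SOS2, an exchange factor that loads RAS with GTP, had the largest decrease of all pathway genes tested. It was at 20.5, 19.9 and 32.0 CPM in DMSO and 6.66, 6.68 and 6.26 CPM in FT671 (log2 fold change -1.85, adjusted p = 4.80e-06, edgeR). STAM, an endosomal adaptor bound by JAKs, was at 43.9, 50.6 and 63.0 CPM in DMSO and 19.1, 21.3 and 22.6 CPM in FT671 (log2 fold change -1.29, adjusted p = 4.50e-06, edgeR). STAM shares 42 exonic bases with ENSG00000229190 on the opposite strand. In both genes DMSO replicate 3 was the highest library.

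IRS1, an insulin receptor substrate, was lower at few counts, with 29, 24 and 12 counts in DMSO and 3, 4 and 10 counts in FT671 (log2 fold change -1.40, adjusted p = 0.00330, edgeR). BTK, a kinase best known from B cells, was the 1 gene of this list that was higher (69.8 ± 5.96 CPM in DMSO and 99.1 ± 7.80 CPM in FT671, SD, n = 3, log2 fold change 0.51, adjusted p = 3.78e-04, edgeR). All 4 of the tested PI3K subunit genes were lower, a group that was also put together after the values were seen, where 26.5% of all genes tested were lower. The fifth, PIK3R2, had at most 3 counts in every library and shares 3942 exonic bases with ENSG00000268173 on the same strand.

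Over the 6 lists together, 79 of the 115 genes were tested, and 35 were lower, 6 were higher and 38 were not called, against 26.5% lower and 23.6% higher over all genes tested. The median log2 fold change was -0.27. With a correction for gene length 33 were lower and 11 higher, and over all genes tested the balance then turned to 3486 lower and 3677 higher. At an adjusted p of 1e-05 by edgeR, 3 were lower (SOS2, SOCS7 and STAM) and 1 was higher (BCL6), against 4.13% and 1.79% of all genes tested. In 40 genes every FT671 library lay below every DMSO library and in 7 every FT671 library lay above, against 30.3% and 26.8% of all genes tested.

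**Figure D3:**
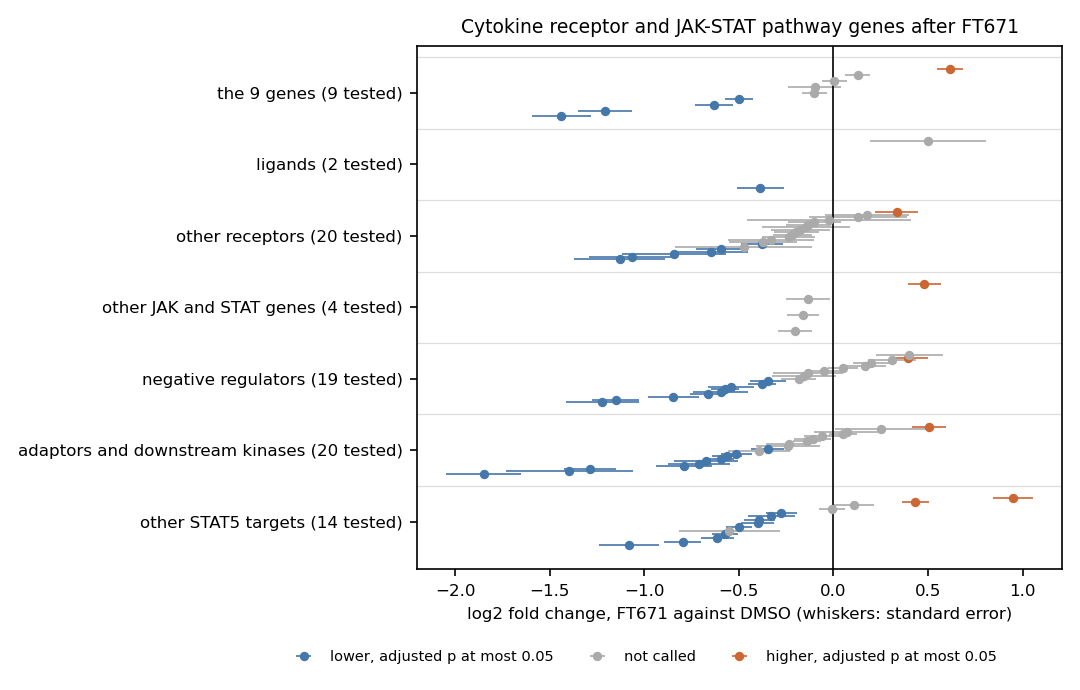
Log2 fold changes (FT671 against DMSO) of the tested pathway genes, grouped by role with the 9 genes at the top, each point a gene with its standard error as whiskers, blue where called lower, orange where called higher and grey where not called at an adjusted p of 0.05. Lower calls outnumber higher calls among the adaptors (10 against 1) and the other STAT5 targets (9 against 2). The same holds for the negative regulators (9 against 1) and the other receptors (6 against 1). Over all genes tested 26.5% were called lower and 23.6% higher.

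Levels of different genes were compared per kb of exon (CPM per kb), since long genes collect more counts. In DMSO the order from low to high was JAK2 (4.19), KIT (4.42), EPOR (5.91), JAK1 (12.5), CISH (13.7), STAT3 (19.7), STAT5B (31.4), STAT5A (68.8) and PIM1 (939 CPM per kb). The libraries overlapped between JAK2 and KIT and between JAK1 and CISH, and not between the other neighbours. PIM1 was above 99.8% of the 11149 protein-coding genes tested in both groups. In FT671 KIT (1.55) and EPOR (2.61) stood below JAK2 (3.84 CPM per kb), and CISH (8.78) and JAK1 (8.80 CPM per kb) overlapped. Among the protein-coding genes tested KIT thereby stood at percentile 42.6 in DMSO and 22.1 in FT671, EPOR at 50.4 and 32.5, and STAT5A at 94.7 and 96.5. An exon length that counts every annotated exon understates the level of a gene whose long exons are little used.

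**Figure D4:**
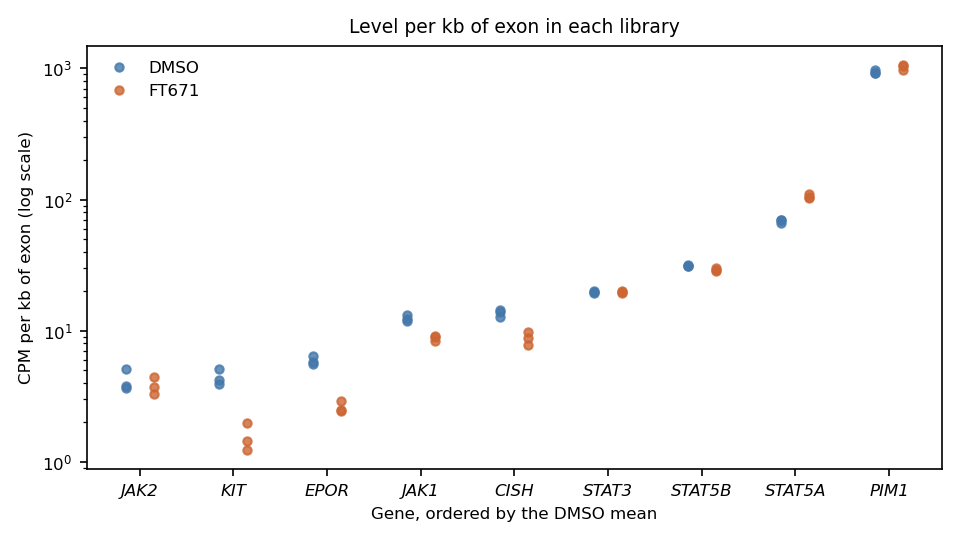
Levels of the 9 genes in CPM per kb of exon on a log axis, with the 3 DMSO and 3 FT671 libraries as points and genes in the order of their DMSO mean. PIM1 stands at 939 and 1026 CPM per kb, far above the others, and the FT671 points of KIT and EPOR lie below those of JAK2.

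The genes most like KIT and STAT5A across the 6 libraries were found by Pearson's r of log2 CPM. The search covered the genes tested outside the 9 genes and the 6 lists. It is a description that rests mostly on the difference between treatments. FERMT2, DPY19L1 and MFSD6 were the most like KIT, with r of 0.998 each and log2 fold changes of -1.32, -0.33 and -1.12. MATK, MANEAL and LAS1L were the most like STAT5A, with r of 0.999 each and log2 fold changes of 1.31, 2.54 and 0.76. These genes do not stand alone, since 62 of the genes searched had an r above 0.99 with KIT and 162 with STAT5A.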

How the data were processed

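RNA-seq libraries of K562 cells treated with DMSO (n = 3) or FT671 (n = 3) were compared. The authors deposited raw counts per gene, 1 table per library, made from ribosome-depleted total RNA (KAPA HyperPrep with RiboErase) aligned to hg38 with STAR. The STAR version, annotation release and strand setting are not given in the sources used here. The ChIP-seq samples of the series were not analysed here. Of 60609 genes, 60295 were matched to GENCODE release 44, and the 314 others held 0.0609% of counts.

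Counts were filtered (filterByExpr), scaled by TMM and tested over 13895 genes with edgeR 4.0.16 (quasi-likelihood) in R 4.3.3, with limma 3.58.1 loaded. Length and GC corrections were loess fits given to edgeR as offsets. DESeq2 1.42.0, the tool in the submitters' processing notes, served as an alternative. Tables and figures were made with Python 3.11.15. Standard errors were derived from the F statistic of the test, and intervals are at 95%. A prior count of 2 was used for log2 CPM. On simulated counts of 13694 genes tested, 100 were changed by a log2 of 0.5 and 99 by a log2 of 1. The test called 50% and 85.9% of these, with 13 false calls. In the measured libraries 50.1% of genes tested were called, a far larger share, so these rates may not carry over to them. Counts of replicates were further apart than sampling noise allows (chi-square over its degrees of freedom from 2.07 to 8.73). The pairs of DMSO replicate 3 with DMSO replicates 1 and 2 were at 7.55 and 8.73, and no other pair was above 3.20.

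The 9 genes and the lists were chosen with earlier results of these data known. All 9 genes are named, and in each list at most 3 genes with the largest decreases and 3 with the largest increases past 0.05, the genes at 3 counts or fewer, genes that share exonic bases with one of the 9 or with a named gene that was called, and the 3 genes most like the largest decrease and increase. A few genes of the lists are not reported here. Alternatives were other scalings, filters, DESeq2, protein-coding genes alone, gene length and GC corrections, a replicate block, the study's threshold and leaving out each library.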

Additional observations from a re-analysis of the deposited data

How the results depend on the processing

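Depth limits this comparison most for genes near 3 counts, and 1 line treated with 1 dose at 1 time was measured. EPOR, KIT, JAK1, CISH and STAT5A kept their calls under all 17 alternatives at 0.05, with log2 fold changes of -1.26 to -1.11, -1.71 to -1.30, -0.54 to -0.36, -0.73 to -0.54 and 0.58 to 0.72. Of the 46 called genes tested, 38 kept their call at 0.05 under every alternative in which they were tested and none changed direction. These counts leave out the threshold of 1e-05 by edgeR, under which most calls were lost. IL10RB, IRS1 and IFNAR2 had 16 alternatives, since they were not tested where at least 10 counts were asked of every library. Leaving out 1 library gave 4 to 4 lower and 1 to 1 higher calls among the 9 genes and 31 to 39 lower and 5 to 8 higher calls in the wider lists. At an adjusted p of 1e-05 by edgeR the 9 genes had 1 lower call and the wider lists 3 lower and 1 higher call. Correction for GC content, with and without the replicate block, gave 2 higher calls among the 9 genes, the second being PIM1 (0.20, adjusted p = 0.020, and with the block 0.00563, edgeR). Correction for gene length, with and without the block, gave 11 higher calls in the wider lists. The sign turned for JAK2 (0.017 with length correction, 0.030 without DMSO replicate 3), for STAT5B (0.039 with length correction, 0.041 with the block added) and for STAT3 (-0.029 with library totals alone, -0.034 without a filter, -0.0055 without FT671 replicate 1). Over all single libraries left out, JAK2 ranged from -0.21 to 0.030 and STAT3 from -0.0055 to 0.016. The cause was not tested. Same-numbered libraries did not deviate together in every pair (r = 0.115, -0.0605 and 0.140), so the numbers were not read as pairs. The replicate block gave 4 lower and 1 higher calls among the 9 genes and 36 and 6 in the wider lists. Without 1 library the difference in the STAT5A to STAT5B ratio was 0.68 to 0.74 and that of JAK1 to JAK2 was -0.49 to -0.22.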

Other observations

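Many receptor genes of the pathway were near the limit of detection. CSF2RB, the beta chain shared by 3 receptors, was at 5.96 ± 0.389 CPM in DMSO (SD, n = 3), whereas IL5RA, its partner for interleukin-5, had at most 3 counts in every library. CSF2RA and IL3RA, its partners for GM-CSF and interleukin-3, were listed at 0 in all 6 libraries. CSF2RA, IL3RA, CRLF2 and IL9R lie in a region that the X and Y chromosomes share, where reads can match both copies, so their 0 counts do not show that the genes are silent. FLT3, IL7R, GHR and PRLR had 0 counts in all 6 libraries. Of 35 other receptor genes 13 had at most 3 counts in every library.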
